A study of Mus musculus with 6 samples.

Results

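The genes described here are 38 mouse genes of the unfolded protein response and the amino acid stress response, out of 18193 genes that a probe set with a single gene symbol represented on the array. They were named by symbol, and each gene was read from its brightest such probe set. All 38 were found and all 38 were bright enough to be tested. The list holds 20 genes of the ATF4 branch (the factor ATF4, its partner factors and feedback genes, enzymes of serine, one-carbon and asparagine metabolism, an amino acid transporter and tRNA synthetases) and 18 genes of the endoplasmic reticulum (ER) branch (chaperones, disulfide isomerases, degradation factors and the regulators Xbp1 and Atf6). RNA came from B16-F1, a melanoma cell line from the mouse strain C57BL/6J, infected with lentivirus so that it stably expressed a short hairpin RNA (shRNA). Control cells carried a hairpin against GFP, and the other lines carried a hairpin against mH2A1 (macroH2A1) or mH2A2 (macroH2A2), histone variants with a large non-histone domain. The labels name a single stable line for each target, so a property of one line and an effect of its knockdown cannot be told apart. Each line was profiled on 2 arrays labelled as biological replicates, and the p-values below measure only the spread between these arrays.

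The unfolded protein response begins at 3 sensors in the ER membrane. The sensor PERK phosphorylates the initiation factor eIF2, as the kinases GCN2, HRI and PKR also do, which lowers general translation while the ATF4 message is translated more. ATF4 with a C/EBP partner then activates genes for amino acid synthesis, amino acid uptake and tRNA charging, and, under lasting stress, Ddit3 (CHOP), Trib3 and Chac1. The sensors IRE1, through splicing of the Xbp1 message, and ATF6, through its cleavage, activate ER chaperones and degradation genes. The ATF4 branch can therefore be engaged by amino acid shortage without the chaperone branch.

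Values are microarray signals that had been scaled to a trimmed mean of 150 on each of the 6 arrays, with array medians from 15.1 to 24.5. Macroh2a1 read 1213 and 1262 on the control arrays, 444 and 319 on the macroH2A1 shRNA arrays and 1271 and 1171 on the macroH2A2 shRNA arrays. Macroh2a2 read 6.1 and 7.5 in control, 3.5 and 2.0 with macroH2A1 shRNA and 11.9 and 8.3 with macroH2A2 shRNA, so it was not lower in the line labelled macroH2A2 shRNA. Its mean over the arrays was below the level set for testing, so this dim probe set does not check that label. All 9 melanocyte markers were tested, with summed signals of 35050 to 45550 per array, whereas the summed signals of 8 leukocyte, 7 fibroblast, 5 keratinocyte and 6 endothelial markers reached at most 115, 185, 44.0 and 45.8. Over all tested probe sets, replicates with the same number in different lines deviated together (see the processing account), so replicate 1 arrays are called set 1 and replicate 2 arrays set 2. The ATF4 branch did not share this in the knockdown lines. Its median log2 difference of replicate 1 from replicate 2 was 0.63 with macroH2A1 shRNA and -0.82 with macroH2A2 shRNA. The array medians were 24.5, 20.6 and 19.4 in set 1 and 15.1, 15.4 and 16.1 in set 2 (control, macroH2A1 and macroH2A2 shRNA). The part of this difference in the shared deviation was not tested. The ratio of 3′ to 5′ control signal lay between 0.809 and 0.841 for Gapdh and between 1.24 and 1.28 for beta-actin over all 6 arrays.

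Genes of the ATF4 branch went up and down together from array to array, and the direction did not follow the line. All 20 were above their own 6-array mean on replicate 2 of the macroH2A2 shRNA line (median 0.39 on the log2 scale) and all 20 were below it on replicate 2 of the macroH2A1 shRNA line (median -0.41). On replicate 1 of the macroH2A2 shRNA line 19 of 20 were below their mean (median -0.43), and on replicate 1 of the macroH2A1 shRNA line 18 were above it (median 0.23). The control arrays lay between, at 0.09 and 0.03. Here and below, log2 values are of the signal plus 16, so differences of dim genes are understated.

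**Figure D1:**
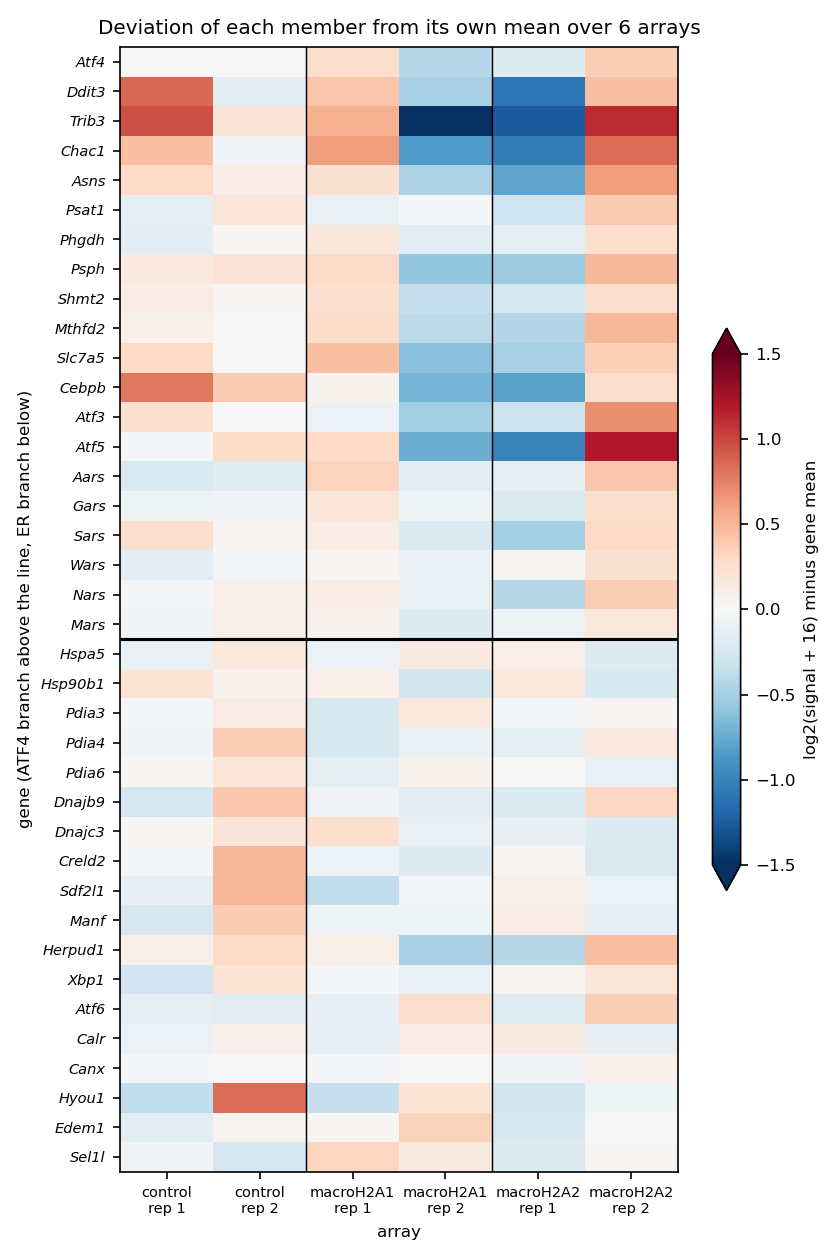
Deviation of each of the 38 genes (rows) from its own mean over the 6 arrays (columns), as log2(signal + 16), with the ATF4 branch above the black line and the ER branch below it. ATF4 branch rows are mostly blue in replicate 2 of macroH2A1 shRNA and replicate 1 of macroH2A2 shRNA and red in replicate 2 of macroH2A2 shRNA, while ER branch rows are paler, with the deepest colours on control replicate 2.

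No gene of either branch passed the test for a difference between lines. With limma and Benjamini-Hochberg adjustment over 27025 probe sets, 0 of 38 genes passed an adjusted p of 0.05 for macroH2A1 shRNA against control, for macroH2A2 shRNA against control or for macroH2A2 against macroH2A1 shRNA, where 0.0% of all tested probe sets passed in each comparison. At an unadjusted p under 0.05, 1189, 1075 and 739 probe sets stood in the 3 comparisons (4.4%, 3.98% and 2.73% of those tested). Among the 38 genes these were Cebpb and Sel1l in the first comparison, Cebpb in the second and 0 genes in the third. With the replicate set as a block in the same limma model, 52, 39 and 1 probe sets passed the adjusted threshold (0.192%, 0.144% and 0.0037%), still with 0 of the 38 genes among them.

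Within a single line, the replicates of the ATF4 branch were far apart in both knockdown lines and close in the control line. The median difference of replicate 1 from replicate 2 was 0.04 in control cells, where 11 of 20 genes were higher in replicate 1. It was 0.63 in macroH2A1 shRNA cells, with 19 of 20 higher in replicate 1, and -0.82 in macroH2A2 shRNA cells, with 20 of 20 higher in replicate 2. Over all tested probe sets these medians were 0.11, 0.05 and 0.03, and the ER branch had -0.20, -0.09 and -0.09. The size of the replicate difference, without its sign, had a median of 0.19, 0.63 and 0.82 for the ATF4 branch and of 0.25, 0.23 and 0.22 for all tested probe sets.

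**Figure D2:**
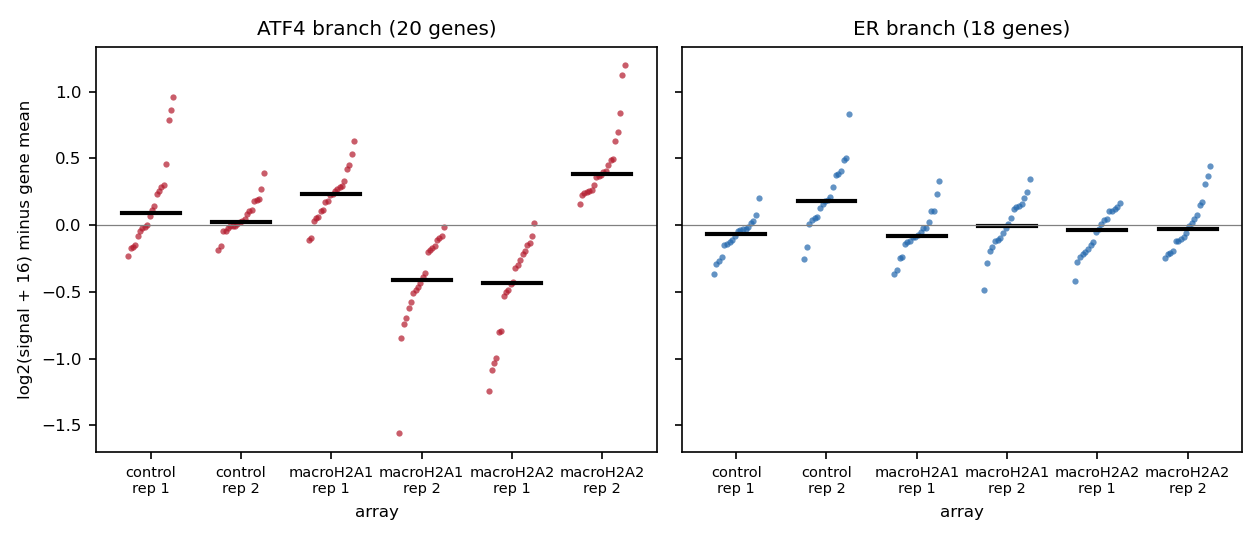
Each point is 1 gene on 1 array, as log2(signal + 16) minus that gene's mean over the 6 arrays, and black bars are medians. In the ATF4 branch the medians run from -0.43 (macroH2A2 shRNA, replicate 1) to 0.39 (macroH2A2 shRNA, replicate 2), and in the ER branch from -0.08 to 0.18.

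All 5 transcription factors of the branch were below their own mean on replicate 2 of macroH2A1 shRNA and replicate 1 of macroH2A2 shRNA and above it on replicate 2 of macroH2A2 shRNA, but they differed in where the control arrays stood. Ddit3 and Cebpb were highest on control replicate 1. Atf4, which encodes the central factor and is itself controlled largely at translation, read 2477 and 2459 on the control arrays (replicates 1 and 2), 2961 and 1827 with macroH2A1 shRNA and 2163 and 3207 with macroH2A2 shRNA. Both knockdown lines thus spanned the control values, with opposite replicates on top, and the fitted difference was -0.08 (SE 0.25) for macroH2A1 shRNA and 0.09 (SE 0.25) for macroH2A2 shRNA against control. Ddit3, which encodes CHOP, a factor linked to stress-induced death, read 1365 and 665 in control, 997 and 525 with macroH2A1 shRNA and 340 and 1017 with macroH2A2 shRNA. Its groups overlapped, and macroH2A2 shRNA against control was -1.96 in set 1 and 0.60 in set 2 (fit -0.68, SE 0.53, adjusted p = 1.0 by limma with Benjamini-Hochberg adjustment). Atf3, a stress-induced repressor and activator of the same family, read 103 and 84.3 in control, 78.4 and 54.8 with macroH2A1 shRNA and 64.6 and 147 with macroH2A2 shRNA. Both macroH2A1 shRNA arrays lay below both control arrays (fit -0.42, SE 0.34), and the macroH2A2 shRNA arrays lay on either side of them (fit 0.07, SE 0.34).

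Cebpb, which encodes a C/EBP partner of ATF4, was the gene of the branch with the smallest p against control. It read 615 and 463 in control, 364 and 210 with macroH2A1 shRNA and 194 and 421 with macroH2A2 shRNA. All 4 knockdown arrays lay below both control arrays. The fitted differences were -0.91 (SE 0.37, unadjusted p = 0.0394, adjusted p = 1.0 by limma) for macroH2A1 shRNA and -0.86 (SE 0.37, unadjusted p = 0.0482, adjusted p = 1.0 by limma) for macroH2A2 shRNA, and they share the control arrays. With the set as a block the Benjamini-Hochberg adjusted p from limma was 0.403 and 0.434. Within sets the macroH2A1 shRNA difference was -0.73 and -1.09, whereas the macroH2A2 shRNA difference was -1.59 and -0.13. The difference of macroH2A2 from macroH2A1 shRNA ran as in the rest of the branch, at -0.86 in set 1 and 0.95 in set 2. Atf5, a further ATF4-dependent factor, ranged from 143 (macroH2A2 shRNA, replicate 1) to 710 (macroH2A2 shRNA, replicate 2), a 4.98-fold span within one line.

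Among the feedback and effector genes were some of the wide spans of the branch, beside Atf5 and Ddit3 (4.01-fold). Trib3, a pseudokinase that restrains ATF4 and AKT signalling, read 634 and 364 in control, 466 and 97.0 with macroH2A1 shRNA and 125 and 709 with macroH2A2 shRNA. Its highest array was 7.31-fold above its lowest, the widest span of the 38 genes, and both extremes came from knockdown lines. The difference of macroH2A2 from macroH2A1 shRNA was -1.78 in set 1 and 2.68 in set 2, which left a fitted value of 0.45 (SE 0.83). Chac1, a glutathione-degrading enzyme, read 646 and 454 in control, 731 and 253 with macroH2A1 shRNA and 221 and 849 with macroH2A2 shRNA. It repeated the pattern of Trib3, with -1.66 in set 1 and 1.69 in set 2, and a fitted value of 0.01 (SE 0.63).

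**Figure D3:**
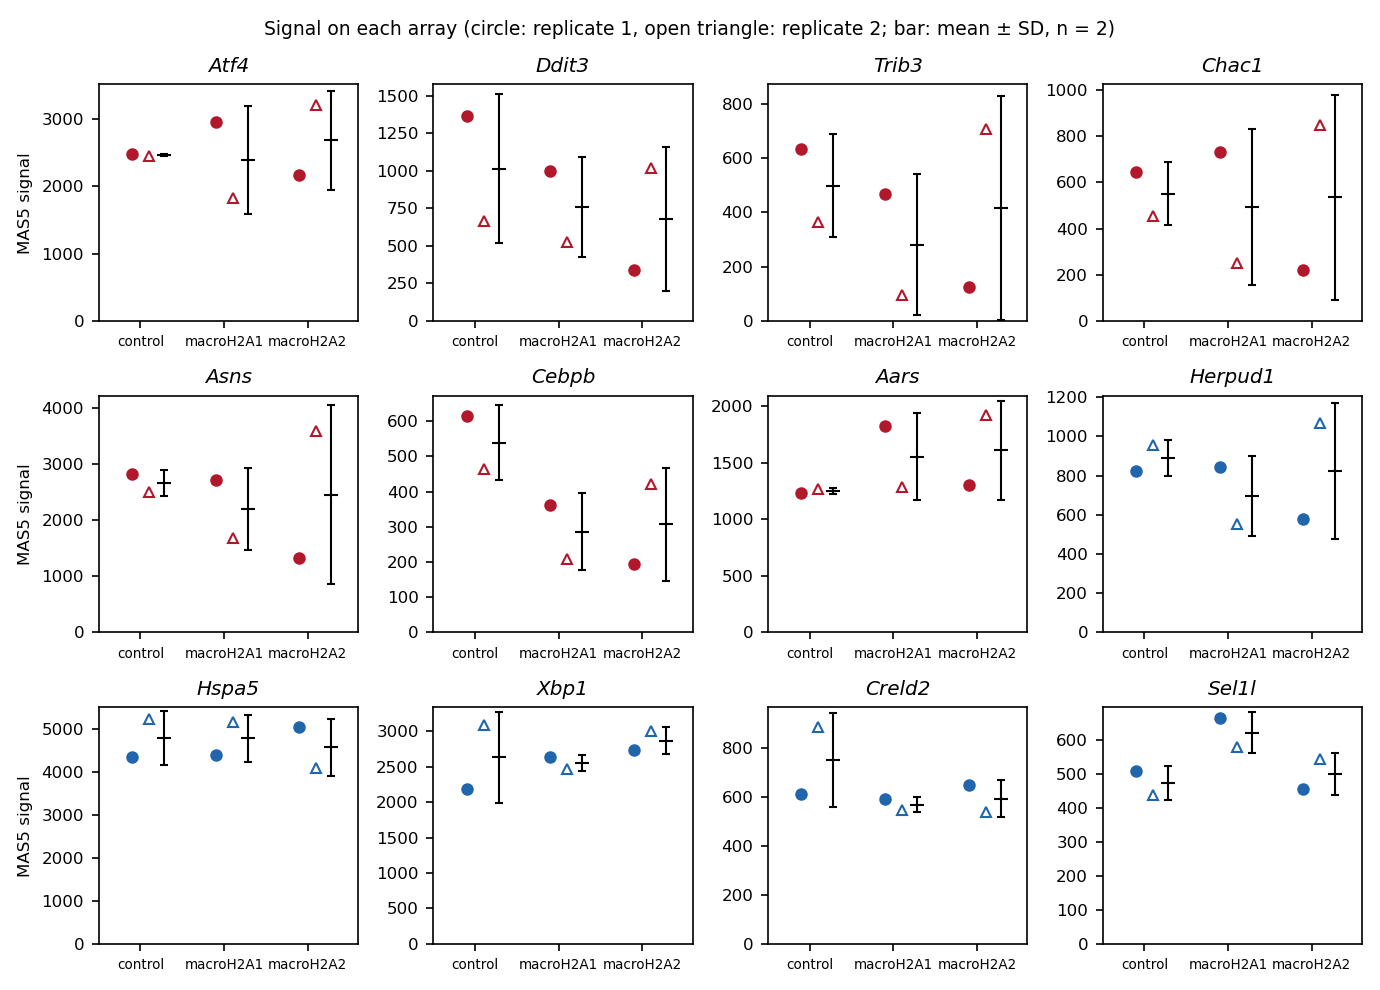
Signal (linear scale from 0) of 12 of the genes on each array, ATF4 branch in red and ER branch in blue, with filled circles for replicate 1, open triangles for replicate 2 and bars for the mean ± SD (n = 2). In Atf4, Trib3, Chac1 and Asns replicate 1 is higher with macroH2A1 shRNA and replicate 2 is higher with macroH2A2 shRNA. Of the ER branch genes drawn, Herpud1, Xbp1 and Sel1l show this order too, and Hspa5 and Creld2 do not.

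Enzymes and transport followed with smaller spans. Asns, the asparagine synthetase and a standard readout of ATF4, read 2827 and 2501 in control, 2712 and 1676 with macroH2A1 shRNA and 1326 and 3582 with macroH2A2 shRNA. Its mean signal was 2664 ± 231 in control, 2194 ± 732 with macroH2A1 shRNA and 2454 ± 1600 with macroH2A2 shRNA (SD, n = 2 each), so the lines did not differ beyond their replicates. Psph, the last enzyme of serine synthesis, ranged from 787 (macroH2A1 shRNA, replicate 2) to 1658 (macroH2A2 shRNA, replicate 2). The one-carbon enzyme Mthfd2 ranged from 1498 to 2881 and the leucine transporter Slc7a5 from 743 to 1576, while the serine pathway enzymes Psat1, Phgdh and Shmt2 spanned 1.63-, 1.34- and 1.53-fold. In each of these 7 genes macroH2A2 was below macroH2A1 shRNA in set 1 and above it in set 2, from -0.18 and 0.41 in Psat1 to -1.02 and 1.09 in Asns.

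The tRNA synthetases, which charge tRNA with amino acids, had narrow spans. Aars, for alanine, read 1228 and 1271 in control, 1825 and 1282 with macroH2A1 shRNA and 1301 and 1918 with macroH2A2 shRNA. All 4 knockdown arrays were above both control arrays, 2 of them by a wide margin and 2 by little, with fitted values of 0.29 (SE 0.22) and 0.33 (SE 0.22). On the other tested Aars probe set the differences from control in sets 1 and 2 were 0.42 and 0.39 for macroH2A1 shRNA. For macroH2A2 shRNA they were -0.05 and 0.78 there, so not every knockdown array was above control. Wars, for tryptophan, read 229 and 255 in control, 264 and 240 with macroH2A1 shRNA and 261 and 305 with macroH2A2 shRNA, so that both macroH2A2 shRNA arrays lay above control (0.21, SE 0.16). Its other tested probe sets were nearer to control in that comparison, at 0.05, 0.10 and 0.09 in set 1 and -0.11, 0.01 and 0.06 in set 2. Mars, for methionine, read 633 and 704 in control, 681 and 572 with macroH2A1 shRNA and 618 and 731 with macroH2A2 shRNA, a 1.28-fold span. Gars, Sars and Nars, for glycine, serine and asparagine, spanned 1.37-, 1.75- and 1.75-fold. None of the 6 synthetases reached an unadjusted p under 0.05 in limma in any of the 3 comparisons.

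The ER branch did not share the order of arrays. Its medians lay between -0.08 and -0.01 on 5 arrays and at 0.18 on replicate 2 of the control line, where 16 of 18 genes were above their own mean. That array was the highest of the 6 for 9 of the 18 genes, where it was the highest for 10.1% of all tested probe sets. In the ATF4 branch replicate 2 of macroH2A2 shRNA was the highest array for 17 of 20 genes (85.0%), against 13.4% of all tested probe sets, and replicate 1 of macroH2A2 shRNA was the lowest for 10 of 20, against 15.7%. These shares describe which array was extreme and carry no test.

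Among the chaperones, Hspa5 (BiP), the main ER chaperone and the usual marker of this branch, read 4347 and 5242 in control, 4404 and 5177 with macroH2A1 shRNA and 5042 and 4104 with macroH2A2 shRNA. The groups overlapped and the fitted differences from control were 0.00 and -0.07 (SE 0.15 each), though their signs turn with the scaling, to -0.16 for macroH2A1 shRNA with quantile normalization and to 0.00 for macroH2A2 shRNA with median centring. Hsp90b1 (GRP94) ranged from 3546 to 4963, and the lectin chaperones Calr and Canx spanned only 1.2- and 1.1-fold. Hyou1, a nucleotide exchange factor for BiP, read 989 on replicate 2 of control and 422 to 634 on the other 5 arrays. Manf and Sdf2l1, a BiP-binding secreted protein and a partner of ER J proteins, had their highest signals on the same control array, 3651 and 1355. Sdf2l1 read 872 and 1355 in control, 734 and 934 with macroH2A1 shRNA and 1024 and 892 with macroH2A2 shRNA, with a fitted -0.39 (SE 0.22) for macroH2A1 shRNA against control.

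The fitted differences from control were below 0 in both knockdown lines for all 6 disulfide isomerases, co-chaperones and their relatives, and none passed the test. They were also below 0 for 15027 (macroH2A1 shRNA) and 15059 (macroH2A2 shRNA) of all 27025 tested probe sets. Some lay near 0, such as Dnajb9 at -0.02 (SE 0.25) with macroH2A2 shRNA. In set 1 of macroH2A1 shRNA, Dnajb9 (0.22) and Dnajc3 (0.21) were above control, and Pdia3, Pdia4, Pdia6 and Creld2 below it. Pdia4 read 980 and 1311 in control, 849 and 942 with macroH2A1 shRNA and 909 and 1119 with macroH2A2 shRNA. Both macroH2A1 shRNA arrays lay below both control arrays, by -0.20 in set 1 and -0.47 in set 2 (fit -0.34, SE 0.18), and the Benjamini-Hochberg adjusted p in limma was 0.435 with the block and 1.0 without it. Pdia6 read 1974 and 2209 in control, 1764 and 2024 with macroH2A1 shRNA and 1960 and 1809 with macroH2A2 shRNA (macroH2A2 shRNA against control -0.15, SE 0.13), and Pdia3 ranged from 2483 to 3290. Creld2, a small ER protein with isomerase activity, read 615 and 889 in control, 592 and 547 with macroH2A1 shRNA and 649 and 540 with macroH2A2 shRNA. Its differences rested on set 2, at -0.68 and -0.70 for the macroH2A1 and macroH2A2 lines against the same control array, while in set 1 they were -0.05 and 0.07. Dnajc3 (p58IPK), a BiP co-chaperone, read 1339 and 1495 in control, 1546 and 1208 with macroH2A1 shRNA and 1200 and 1132 with macroH2A2 shRNA. Both macroH2A2 shRNA arrays were the lowest of the 6 (-0.28, SE 0.15 against control). Dnajb9, a J protein that acts on IRE1, ranged from 441 to 711.

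Of the degradation genes and regulators, Sel1l, the scaffold of the HRD1 ubiquitin ligase, read 509 and 439 in control, 665 and 579 with macroH2A1 shRNA and 457 and 544 with macroH2A2 shRNA. The macroH2A1 shRNA arrays were the 2 highest, by 0.37 in set 1 and 0.39 in set 2 over control (fit 0.38, SE 0.16, unadjusted p = 0.0458, adjusted p = 1.0 by limma). The other 4 tested Sel1l probe sets did not show this, at -0.16, -0.09, -0.44 and -0.13 in set 1 and at 0.02, 0.33, -0.06 and -0.20 in set 2, so the value rests on a single probe set. Edem1, which directs misfolded glycoproteins to degradation, read 729 and 835 in control, 823 and 1034 with macroH2A1 shRNA and 684 and 810 with macroH2A2 shRNA. MacroH2A2 was below macroH2A1 shRNA by -0.26 and -0.35 within sets (fit -0.30, SE 0.16). The other tested Edem1 probe set was at -0.23 in set 1 and 0.13 in set 2, so the fall in set 2 rests on a single probe set. Xbp1 read 2179 and 3082 in control, 2630 and 2469 with macroH2A1 shRNA and 2734 and 3000 with macroH2A2 shRNA, and these arrays measure total message, not splicing. Atf6 read 329 and 325 in control, 334 and 436 with macroH2A1 shRNA and 320 and 476 with macroH2A2 shRNA, so its higher values were both in set 2.

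Of the 18 ER branch genes 4 had the signs of the ATF4 branch for macroH2A2 against macroH2A1 shRNA, namely Herpud1, Dnajb9 (-0.17 in set 1 and 0.47 in set 2), Atf6 (-0.06 and 0.12) and Canx (-0.03 and 0.07). Herpud1, a membrane component of ER degradation, had the widest values of the 4 and was singled out after they were seen. It read 824 and 955 in control, 841 and 552 with macroH2A1 shRNA and 579 and 1069 with macroH2A2 shRNA. Its difference of macroH2A2 from macroH2A1 shRNA was -0.53 in set 1 and 0.93 in set 2, against ER branch medians of 0.06 and -0.06.

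Within replicate sets, the ATF4 branch had opposite signs in sets 1 and 2, and its medians stood apart from those of the ER branch in the comparisons that involve macroH2A2 shRNA but not for macroH2A1 shRNA against control. For macroH2A2 against macroH2A1 shRNA all 20 ATF4 branch genes were lower in set 1 (median -0.58) and all 20 were higher in set 2 (median 0.85). This combination was seen in 26.3% of all tested probe sets and in 4 of 18 ER branch genes. The count holds for the brightest probe sets. In set 1 Wars was at only -0.02 on that probe set and at 0.24, 0.02 and 0.44 on its other tested probe sets. For macroH2A2 shRNA against control 16 of 20 were lower in set 1 and higher in set 2 (medians -0.53 and 0.32, 29.5% of all tested probe sets). For macroH2A1 shRNA against control 13 of 20 were higher in set 1 and lower in set 2 (medians 0.13 and -0.38, 17.7% of all tested probe sets). The ER branch had medians of 0.02 and -0.31, 0.00 and -0.20, and 0.06 and -0.06 in sets 1 and 2 of the macroH2A1 shRNA against control, macroH2A2 shRNA against control and macroH2A2 against macroH2A1 shRNA comparisons. In the same order of comparisons, 9, 13 and 12 of the 18 ER branch genes had opposite signs in sets 1 and 2, in either direction. This held for 43.4%, 48.1% and 48.3% of all tested probe sets, so opposite signs as such were not particular to the ATF4 branch. Each within-set value compares 1 array with 1 array and has no test.

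**Figure D4:**
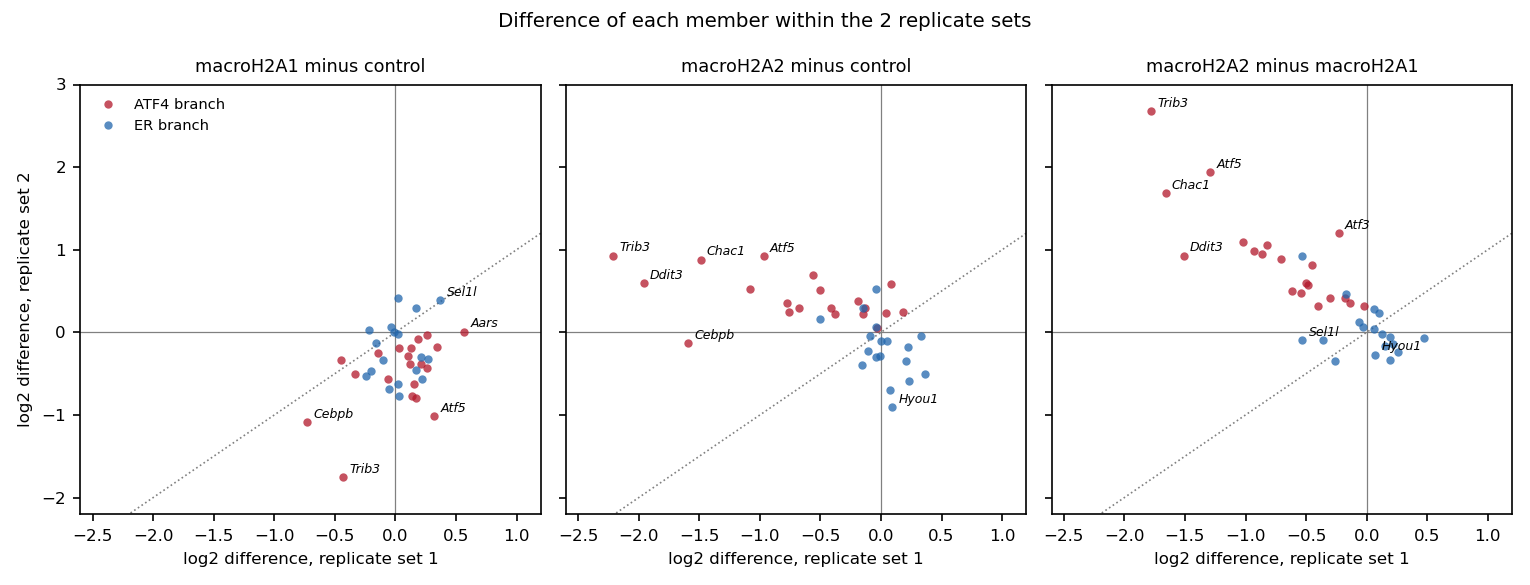
Each point is 1 gene, at its log2 difference between 2 lines in replicate set 1 (x axis) and in replicate set 2 (y axis), with a dotted line where both sets would be equal. In the right panel all 20 ATF4 branch genes lie above and to the left of 0, from Wars at -0.02 and 0.32 to Trib3 at -1.78 and 2.68. ER branch genes lie on all sides of 0, and the farthest, Herpud1 at -0.53 and 0.93, lies among the ATF4 branch genes.

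The median of the ATF4 branch minus the median of the ER branch was near 0 over both sets in all 3 comparisons, and within sets it was wide only in the comparisons that involve macroH2A2 shRNA. For macroH2A2 against macroH2A1 shRNA it was -0.64 in set 1, 0.91 in set 2 and 0.02 over both. For macroH2A2 shRNA against control it was -0.53, 0.52 and 0.03, and for macroH2A1 shRNA against control 0.11, -0.07 and -0.05. Over both sets the ATF4 branch medians were -0.16, -0.04 and 0.05 for macroH2A1 against control, macroH2A2 against control and macroH2A2 against macroH2A1 shRNA, with 16, 11 and 4 of 20 genes lower. The ER branch medians were -0.12, -0.07 and 0.03, and those of all tested probe sets -0.03, -0.03 and 0.00. Leaving out replicate 2 of the macroH2A2 shRNA line gave an ATF4 branch median of -0.46 against control, and leaving out replicate 1 gave 0.33.

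Groups of arrays that did not overlap were no more frequent among these genes than on the whole array. For macroH2A1 shRNA against control 3 of 38 genes were higher on both arrays (Aars, Sel1l and Atf6) and 4 lower (Cebpb, Atf3, Pdia4 and Creld2), against 13.0% and 14.9% of all tested probe sets. For macroH2A2 shRNA against control 2 were higher (Aars and Wars) and 3 lower (Cebpb, Dnajc3 and Pdia6), against 13.0% and 16.2%. For macroH2A2 against macroH2A1 shRNA 1 was higher (Xbp1) and 3 lower (Dnajc3, Edem1 and Sel1l), all from the ER branch, against 13.3% and 14.6%. These groups are those of the brightest probe sets. Further tested probe sets of Aars, Wars, Atf6, Dnajc3, Xbp1, Edem1 and Sel1l did not all share the signs of the brightest.

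The test gave calls among these genes only when an array was left out and the replicate set was kept as a block, which leaves 1 residual degree of freedom and assumes that the lone array varies like the others. Without replicate 2 of macroH2A2 shRNA, 10 ATF4 branch genes fell in that line against control (lower in 2.19% of all tested probe sets), among them Ddit3 (-1.93), Trib3 (-2.54), Cebpb (-1.68) and Asns (-1.21). Without its replicate 1, 3 rose against control (Trib3 1.26, Chac1 1.13 and Atf5 1.26, higher in 0.229%). For macroH2A2 against macroH2A1 shRNA, Ddit3, Trib3, Chac1 and Asns fell without macroH2A2 shRNA replicate 2 (0.585% of all tested probe sets fell) and the same genes were among 7 that rose without macroH2A2 shRNA replicate 1 (0.263% rose). The replicates of the macroH2A2 shRNA line differed by a median of 0.82, without sign, in the ATF4 branch, against 0.22 over all tested probe sets. The assumption was thus not met by this branch, so these calls cannot decide a difference between lines. Against control in macroH2A1 shRNA cells, Trib3 was at -1.09 and Cebpb at -0.91 when macroH2A2 shRNA replicate 1 or 2 was left out. No array of that comparison was removed there, and these differences are those of the fit to all 6 arrays, which called neither gene. Only the estimate of the spread changed, with prior degrees of freedom, borrowed from other probe sets, of 17.3 and 17.5 instead of 9.09. Their calls there rest on that estimate. In these fits, without macroH2A2 shRNA replicate 1 and replicate 2, 1.18% and 1.17% of all tested probe sets were called lower. Without macroH2A1 shRNA replicate 1, Trib3 was at -2.54 and Cebpb at -1.45. No ER branch gene was called in any of the 6 such fits.

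Promoters were read for the members because the branches differed in which arrays they were high on. RefSeq windows of 300 bases on GRCm38.p6, from 250 before to 50 after an annotated start, were at hand for 17 ATF4 branch genes and 15 ER branch genes, and Slc7a5, Wars, Nars, Manf, Atf6 and Hyou1 are named only. The C/EBP-ATF core, TGATGNAA on either strand, was found in 6 of 17 ATF4 branch genes (35.3%), in 1 of 15 ER branch genes (6.67%) and in 4.51% of all 27025 genes with a window. The ER stress element, searched on either strand, was found in 0 of 17 ATF4 branch genes, in 7 of 15 ER branch genes (46.7%) and in 0.137% of all genes. These elements were known from such genes when they were defined, so the shares describe the lists and carry no test. The matches of the 2 motifs did not overlap.

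The following stretches hold the C/EBP-ATF core, in capitals with up to 20 bases on each side, 5′ to 3′ on the strand of the gene. They are shown for the ATF4 branch genes that hold a core upstream of the start and whose values on all arrays are given above. Herpud1 is shown as the ER branch gene that holds the core.
Chac1: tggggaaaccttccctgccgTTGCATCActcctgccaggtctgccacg
Asns: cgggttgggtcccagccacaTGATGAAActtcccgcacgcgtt
Atf3: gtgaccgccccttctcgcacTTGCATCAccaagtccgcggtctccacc
Aars: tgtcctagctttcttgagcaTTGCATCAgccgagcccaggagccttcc
Herpud1: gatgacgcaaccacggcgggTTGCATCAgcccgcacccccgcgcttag
They lie on GRCm38.p6 at chr2:119351029-119351076 (plus strand, Chac1), chr6:7693210-7693252 (minus strand, Asns), chr1:191183416-191183463 (minus strand, Atf3), chr8:111033710-111033757 (plus strand, Aars) and chr8:94386297-94386344 (plus strand, Herpud1). All 5 lie upstream of the annotated start. The core of Trib3, TTACATCA at chr2:152344039-152344046 on the minus strand, lies 15 to 22 bases after the start. Aars holds another core, TTTCATCA, 10 to 17 bases after its start, and Gars also holds the core.

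The ER stress elements are shown for the main chaperone, a second chaperone, an isomerase and Creld2, with the element in capitals.
Hspa5: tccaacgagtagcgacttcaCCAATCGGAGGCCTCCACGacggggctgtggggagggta
Hsp90b1: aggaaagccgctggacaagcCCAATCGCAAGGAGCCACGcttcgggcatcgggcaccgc
Pdia6: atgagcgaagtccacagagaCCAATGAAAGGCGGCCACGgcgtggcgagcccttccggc
Creld2: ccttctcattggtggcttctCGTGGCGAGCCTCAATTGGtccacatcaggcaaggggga
Herpud1 element II: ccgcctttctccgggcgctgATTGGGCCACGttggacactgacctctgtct
They lie on GRCm38.p6 at chr2:34772005-34772063 (plus strand, Hspa5), chr10:86705618-86705676 (minus strand, Hsp90b1), chr12:17266471-17266529 (plus strand, Pdia6), chr15:88819500-88819558 (plus strand, Creld2, where the element reads on the opposite strand) and chr8:94386357-94386407 (plus strand, Herpud1). The last is the shorter ER stress element II, also searched on either strand, found in 1 of 15 ER branch genes and in 0.0444% of all genes, and searched after the others. Dnajc3, Calr and Canx also hold the longer element. The XBP1 site TGACGTGG, on either strand, was found in 0 members of either branch and in 0.714% of all genes.

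**Figure D5:**
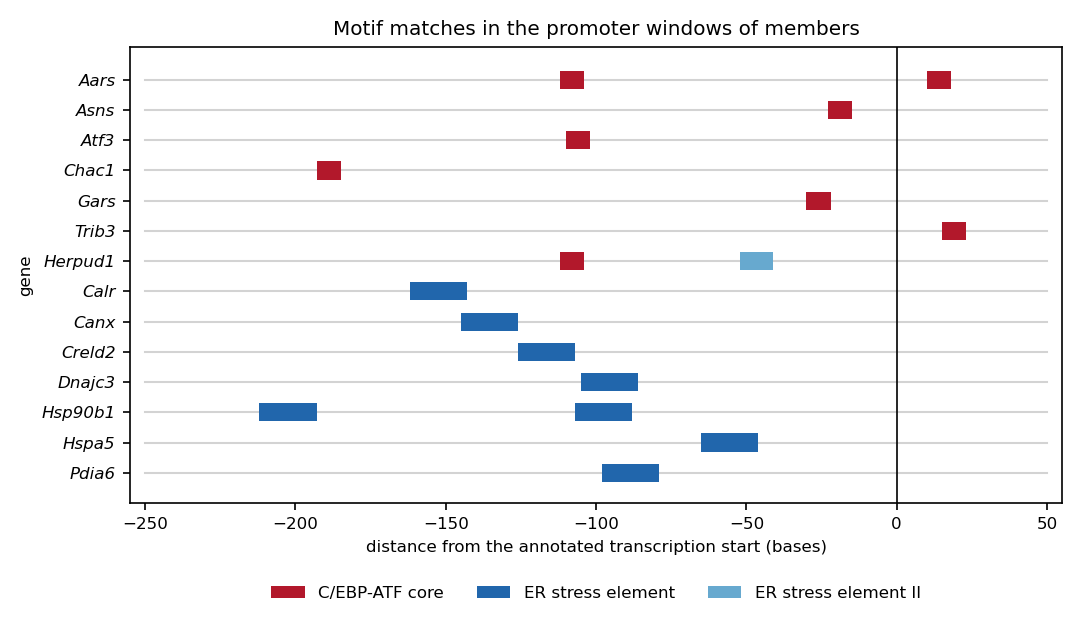
Positions of the motif matches in the 14 members that hold one, as distance in bases from the annotated start at 0, with C/EBP-ATF cores in red and ER stress elements in blue. The cores lie between 193 bases before and 22 bases after the start, and Herpud1 holds a motif of each kind.

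The 6 ATF4 branch genes with the core (Trib3, Chac1, Asns, Atf3, Aars and Gars) had medians of -0.75 in set 1 and 1.14 in set 2 for macroH2A2 against macroH2A1 shRNA. The 11 without it had -0.62 and 0.81. Both groups ran the same way, and the difference between them was not tested. The 7 ER branch genes with the ER stress element had 0.13 and -0.09 and the 8 without it -0.06 and 0.08.

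Other genes of the pathway were taken from lists that are not part of the 38. Each was read from its brightest probe set only. Of 22 further ATF4 targets and amino acid genes 19 were tested, and 16 of them (84.2%) were lower in set 1 and higher in set 2 for macroH2A2 against macroH2A1 shRNA, with medians of -0.78 and 0.67. None passed the adjusted threshold in limma with or without the block. Slc7a11, the cystine transporter, read 255 and 216 in control, 87.6 and 21.4 with macroH2A1 shRNA and 35.4 and 99.2 with macroH2A2 shRNA, so all 4 knockdown arrays were below control and the order within the lines was that of the ATF4 branch. Its fitted differences were -2.01 (SE 0.51) and -1.70 (SE 0.51), with Benjamini-Hochberg adjusted p from limma of 0.827 and 0.985, or 0.116 and 0.19 with the block. Ppp1r15a (GADD34), the phosphatase subunit that reverses eIF2 phosphorylation, was at -0.56 (SE 0.28) and the glutamine transporter Slc38a2 at 0.23 (SE 0.14) in macroH2A2 shRNA cells against control. In sets 1 and 2 these were -1.0 and -0.12 for Ppp1r15a and 0.09 and 0.37 for Slc38a2.

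Of 14 further cytosolic tRNA synthetases 13 were tested, and 5 (38.5%) were lower in set 1 and higher in set 2 for macroH2A2 against macroH2A1 shRNA, with medians of 0.03 and 0.30. Farsb, for phenylalanine, was at 0.45 (SE 0.13) in that comparison, and Iars (isoleucine) and Rars (arginine) were at -0.65 (SE 0.27) and -0.22 (SE 0.14) for macroH2A1 shRNA against control. Sets 1 and 2 gave 0.41 and 0.49 for Farsb, -0.2 and -1.1 for Iars and -0.32 and -0.13 for Rars. All 28 further ER folding and degradation genes were tested, with medians of -0.07 and -0.03 within sets for macroH2A2 against macroH2A1 shRNA. Their smallest p-values were against control in macroH2A2 shRNA cells, for the isomerase Pdia5 (-0.58, SE 0.17), the oxidase Ero1lb (-0.62, SE 0.19) and the reductase Dnajc10 (-0.43, SE 0.15). Of 9 sensors and eIF2 kinases 8 were tested, and 7 of 8 were lower in macroH2A2 shRNA cells than in control (median -0.24), as were 15059 of all 27025 tested probe sets. Control replicate 1 was the highest array for 5 of the 8. Their smallest p-values were in that comparison, with Eif2ak4 (GCN2) at -0.38 (SE 0.17), Ern1 (IRE1) at -0.46 (SE 0.26) and Eif2ak1 (HRI) at -0.28 (SE 0.18). By set, Eif2ak4 was at -0.48 and -0.28, Ern1 at -0.99 and 0.07 and Eif2ak1 at -0.24 and -0.33. In each of these lists 0 genes passed the adjusted threshold in limma in any of the 3 comparisons, with or without the block.

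Another stress list also differed between replicates, in another order. The 15 tested hypoxia and glycolysis genes were highest on replicate 1 of control for 13 genes (median deviation 0.66, the highest array for 32.4% of all tested probe sets) and lowest on replicate 1 of macroH2A2 shRNA for 11 (median -0.47). They shared the low array of the ATF4 branch but not its high one, since replicate 2 of macroH2A2 shRNA stood at -0.06. On replicate 2 of macroH2A1 shRNA they stood at -0.14, against -0.41 for the ATF4 branch. The part of the one list in the array order of the other was not tested.

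Where a gene had further tested probe sets, these could be set against the brightest one. For 13 ATF4 branch genes there were 19 such probe sets, of which 16 had the sign of the brightest in set 1 and 18 in set 2 for macroH2A2 against macroH2A1 shRNA. Those with the other sign were all of Wars. For 13 ER branch genes there were 26, of which 19 and 15 had the same sign. For macroH2A2 shRNA against control the counts were 15 and 18 of 19 in the ATF4 branch and 22 and 21 of 26 in the ER branch. For macroH2A1 shRNA against control they were 13 and 19 of 19 and 15 and 16 of 26.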

How the data were processed

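The data are 6 one-colour Affymetrix arrays, 2 for each of 3 shRNA lines. Each probe set has 1 deposited linear signal intensity per array, and the submitters' processing notes name MAS5 for it; its version and a genome build are not given in the sources used here. Of 45101 probe sets, 64 controls were left out, and 34945 carried 1 gene symbol, 932 several and 9160 none. Signals were analysed as log2(signal + 16). Probe sets at or above the 40th percentile of mean signal (10.4) were tested, 27025 in all. One limma fit (limma 3.58.1, R 4.3.3, with a variance trend) held 3 line means and all 6 arrays, with Benjamini-Hochberg adjustment at 0.05, two-sided, and was tested on simulated data.

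Every line has a replicate 1 and a replicate 2 in the labels, which do not say what a number marks. Across tested probe sets, the difference of replicate 1 from replicate 2 correlated between pairs of lines at 0.576, 0.372 and 0.415, so the numbers were taken as pairing the arrays, and the fit with the number as a block is printed where it bears on a call.

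Values on all arrays were given for Atf4, Ddit3, Xbp1, Hspa5, Asns and the 4 members of each branch with the smallest unadjusted p per comparison, with ranges for the rest and the 3 such genes of each further pathway list; Chac1, Hyou1 and Herpud1 were added after their values were seen. The members and lists were chosen with earlier results of these data known. With 2 arrays per line, their number limits the precision. Alternatives were other pseudocounts, filters and normalizations, no variance trend, only the compared lines, the block, and each array left out. Promoter windows came from RefSeq on GRCm38.p6.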

Additional observations from a re-analysis of the deposited data

Results flagged for a closer look

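Farsb, a subunit of phenylalanyl-tRNA synthetase and not one of the 38 genes, differed between the lines in opposite directions on its brightest probe set: both macroH2A1 shRNA arrays (915 and 945) lay below both control arrays (1028 and 1193), and both macroH2A2 shRNA arrays (1225 and 1337) lay above them. Farsb has 4 probe sets, and only this one was read. The difference of macroH2A2 from macroH2A1 shRNA was 0.45 (SE 0.13, unadjusted p = 0.00883, adjusted p = 1.0 by limma), so it did not pass the threshold.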

How the results depend on the processing

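No member was called under other pseudocounts, filters, normalizations, variance models or samples fitted, or with the block alone. Among all probe sets, the replicate block gave 52, 39 and 1 calls for macroH2A1 shRNA against control, macroH2A2 shRNA against control and macroH2A2 against macroH2A1 shRNA, the block with quantile normalization 22, 16 and 1, and median centring 3 in the first; the cause was not tested. The block changed no other call. With an array left out, the calls stayed at 0 without the block. With it, an alternative added after seeing the data, the arrays left out in turn (control replicates 1 and 2, macroH2A1 shRNA 1 and 2, macroH2A2 shRNA 1 and 2) gave 34, 50, 67, 26, 515 and 514 calls for macroH2A1 shRNA against control, 3, 96, 138, 133, 114 and 804 for macroH2A2 shRNA against control and 5, 5, 6, 3, 106 and 204 for macroH2A2 against macroH2A1 shRNA. Members called were 2 in the first without macroH2A1 shRNA 1 or either macroH2A2 shRNA array, and 3 and 10 in the second and 7 and 4 in the third without macroH2A2 shRNA 1 and 2. Leaving out arrays moved the ATF4 branch median from -0.43 to 0.12, -0.46 to 0.33 and -0.38 to 0.46, and its gap to the ER branch from -0.37 to 0.23, -0.38 to 0.40 and -0.40 to 0.49.

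Of 48 named gene values under 768 alternatives, 736 kept their direction and 0 passed the threshold (smallest limma adjusted p 0.116). The 32 reversals were of values that did not pass it. Median centring turned Xbp1 in macroH2A1 shRNA cells to 0.04 and Hspa5 in macroH2A2 shRNA cells to 0.00, and quantile normalization, with or without the block, turned Hspa5 to -0.16 in macroH2A1 shRNA cells and to 0.01 for macroH2A2 against macroH2A1 shRNA. The other 26 came from leaving out an array. Against control in macroH2A1 shRNA cells these values ranged from -0.43 to 0.26 for Atf4, -0.90 to 0.12 for Ddit3, -0.27 to 0.22 for Xbp1, -0.13 to 0.13 for Hspa5 and -0.66 to 0.03 for Asns. In macroH2A2 shRNA cells they ranged from -0.19 to 0.38, -1.45 to 0.09, -0.11 to 0.39, -0.22 to 0.08 and -0.99 to 0.43 for the same genes, and from -0.03 to 0.52 for Atf6. For macroH2A2 against macroH2A1 shRNA they ranged from -0.17 to 0.52 for Atf4, -1.06 to 0.48 for Ddit3, -0.22 to 0.08 for Hspa5, -0.68 to 0.74 for Asns, -0.02 to 0.99 for Atf3 and -0.02 to 0.23 for Mars.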
